A study of Mus musculus with 6 samples.

Results

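Polycomb group proteins keep developmental genes silent, and this account follows the transcripts of 10 genes that encode subunits of their main complexes in blood stem cells with a deletion of Dpy30. The genes were taken by name: Ezh1, Ezh2, Eed, Suz12 and Jarid2 for Polycomb repressive complex 2 (PRC2), and Bmi1, Ring1, Rnf2, Cbx2 and Cbx7 for Polycomb repressive complex 1 (PRC1). All 10 were found among the 38926 genes in the count files, and all 10 had enough counts to be tested. No measured value entered the rule that named them, but the choice was made with earlier results of these data known.

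The cells were hematopoietic stem cells (HSCs) sorted by surface markers from mouse fetal liver at E14.5, when the fetal liver is the main site of blood formation, and measured by RNA sequencing after poly(A) selection. Each of 3 litters gave 1 control sample, Vav-Cre; Dpy30F/+, and 1 knockout sample, Vav-Cre; Dpy30F/-. Every sample of both genotypes therefore carried the Vav-Cre transgene and 1 floxed Dpy30 allele. The other allele was intact in the controls and null in the knockouts, so the controls had 1 copy that Cre could not remove. Vav regulatory elements drive Cre in blood cells, and RNA from a cell in which the floxed allele had not recombined would still contain Dpy30. Coordinates are those of GRCm38 in the GENCODE M21 annotation. Samples are called control or knockout 1, 2 and 3 after their litter, and values are listed in that order. The number of embryos behind a sample is not stated.

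PRC2 methylates lysine residues in the tail of histone H3 and leaves the mark H3K27me3. EZH1 or EZH2 is its catalytic subunit, EED binds the mark and holds the complex together, SUZ12 is the scaffold, and JARID2 helps bring the complex to chromatin. PRC1 attaches ubiquitin to histone H2A: RING1 or RNF2 (RING1B) is the ligase, a PCGF protein such as BMI1 (PCGF4) is its partner, and CBX proteins such as CBX2 and CBX7 bind H3K27me3 through a chromodomain. In blood stem cells BMI1 is known for sustaining self-renewal and for repressing Cdkn2a. DPY30 belongs to the SET1 and MLL complexes, which methylate H3K4 at active promoters and are classically described as opposing Polycomb repression.

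SET1 and MLL complexes mark promoters rich in CpG dinucleotides. RefSeq (GRCm38.p6) promoters were matched for 9 of the 10 genes, 10 promoters in all. The 250 bases before their start sites held 12 to 37 CpG dinucleotides, against a median of 6 over 32841 mouse promoters, so all 10 lay above the median. The promoter of Suz12 held the most, 37, and 97.8% of all promoters held fewer. Ezh1 had 14, with fewer in 70.6% of promoters. 3 promoters are printed 5′ to 3′ with each CG in capitals: Suz12, the most abundant of the 10 transcripts; Ezh1, the scarcer of the paired methyltransferase genes; and Pcgf6, a PRC1 gene outside the 10 whose knockout samples all lay below the controls.
Suz12 (GRCm38 chr11:79992856-79993105, + strand): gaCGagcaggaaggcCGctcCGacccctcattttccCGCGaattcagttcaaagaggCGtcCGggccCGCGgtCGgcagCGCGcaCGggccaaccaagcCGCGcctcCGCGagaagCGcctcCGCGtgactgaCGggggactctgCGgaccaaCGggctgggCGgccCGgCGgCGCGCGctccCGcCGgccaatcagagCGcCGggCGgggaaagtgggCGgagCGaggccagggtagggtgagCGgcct
Ezh1 (GRCm38 chr11:101226464-101226713, - strand): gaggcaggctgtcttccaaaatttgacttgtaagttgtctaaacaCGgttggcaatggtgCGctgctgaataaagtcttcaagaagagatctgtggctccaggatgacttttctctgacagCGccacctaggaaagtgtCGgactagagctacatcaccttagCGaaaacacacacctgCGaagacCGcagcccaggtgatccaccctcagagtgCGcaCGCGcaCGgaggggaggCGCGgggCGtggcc
Pcgf6 (GRCm38 chr19:47050907-47051156, - strand): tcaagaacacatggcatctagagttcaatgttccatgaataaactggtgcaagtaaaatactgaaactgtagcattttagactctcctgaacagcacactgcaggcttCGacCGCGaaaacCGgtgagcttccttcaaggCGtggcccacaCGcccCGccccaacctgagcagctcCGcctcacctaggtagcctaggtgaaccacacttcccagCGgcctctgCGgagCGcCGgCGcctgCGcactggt
Each printed window lies just outside the bounds of its own gene in the GENCODE M21 annotation. Overlap with exons of other genes is not given here. Motifs of the kind bound by E2F factors, spelled TTTCCCGC, TTTGGCGC, TTTCGCGC and TTTGCCGC, were searched for on both strands. They were present in 1.86% of all promoters, and among the 9 matched genes only Suz12 had a match, TTTCCCGC with its first base at position 32 of the printed window.

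The libraries held 35559444 to 43394700 gene counts in the controls and 31897737 to 36679347 in the knockouts, of which transcripts of the mitochondrial genome made up 54.4% to 67.7% and 49.2% to 55.7%. Levels are given as CPM, counts scaled to a library of 1000000, on library sizes scaled by the trimmed mean of M-values (TMM), as mean ± SD with n = 3 throughout. The HSC marker list summed to 775 to 800.0 CPM in the controls, to 953 and 1084 in knockouts 1 and 2, and to 359 in knockout 3. Of its 13 genes, 9 had a positive log2 fold change by edgeR and 4 a negative one, with a median of 0.24. The median was 0.68 without knockout 3 and -0.32 without knockout 2. DESeq2 called 0 of the 13, where it called 1.72% of all genes it tested. Knockout 3 stood apart: its Mecom level was 11.6 CPM and its Hlf level 27.2, where every other sample had at least 70.2 and 146. It had the fewest detected genes (13972), followed by knockout 2 (14674). Knockout 1 had 16857 and the controls 16149 to 17241. Ly6a, which encodes the surface marker Sca-1, was low in all samples (0 to 7.44 CPM). The 9 macrophage markers summed to 285 to 583 CPM in the controls and to 768, 315 and 1435 in the knockouts, none of the 9 was at 0 in any sample, and 5 of the 9 stood higher in the knockouts at an unadjusted p under 0.05 (4.26% of all tested genes did). DESeq2 called 4 of the 9 (1.72% of all genes it tested), and again 4 of the 9 with litter as a block (2.72% of all). Their part in the results was not tested.

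Dpy30 itself (GRCm38 chr17:74299474-74323944) measured 24.6, 24.2 and 31.6 CPM in the controls and 7.93, 5.95 and 13.7 in the knockouts. Every knockout lay below every control. The knockout mean, 9.18 ± 3.999 CPM, was 34.2% of the control mean, 26.8 ± 4.196. This was a log2 fold change of -1.55 ± 0.46 (SE), with a 95% interval from -2.61 to -0.48. edgeR's quasi-likelihood test gave an adjusted p of 0.672 over 13646 genes, and DESeq2 gave an adjusted p of 0.0432, which was 0.0509 with litter as a block and so past the threshold only without it. The exact two-sided permutation test gave p = 0.1, the smallest that 3 against 3 samples allow. In bulk samples fewer cells that express a gene and less RNA per cell cannot be told apart.

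None of the PRC2 genes and none of the PRC1 genes passed the test for a difference between the genotypes. At an adjusted p under 0.05, edgeR called 0 of the 10 genes, where it called 0 of all 13646 genes tested (0%). At an unadjusted p under 0.05 the count was again 0 of 10, against 6.51% of all tested genes. In none of the 10 did the 3 knockouts lie wholly above or wholly below the 3 controls, against 14.1% of all tested genes. DESeq2 called none of the 10 and 1.72% of the genes it tested, and with litter as a block none of the 10 and 2.72%. The smallest adjusted p among the 10 was 0.901 (edgeR), for Cbx2.

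The complexes were also summarised apart. Among the PRC2 genes 1 log2 fold change was positive and 4 were negative, with a median of -0.07. All 5 PRC1 values were positive, with a median of 0.22, where the median over all tested genes was 0.01. Every estimate except that of Cbx2 was smaller than its standard error, and the signs moved with the scaling: on library size alone, which shifted the median of all genes by 0.21, the medians were 0.16 for PRC2 and 0.44 for PRC1. The PRC1 median was 0.11 with litter as a block, with Ring1 then negative. As single samples were left out, the median ran from -0.14 (without control 1) to 0.05 (without control 3) for PRC2 and from 0.06 (without control 2) to 0.50 (without control 3) for PRC1. The SD of the per-litter medians was 0.27 for PRC2 and 0.88 for PRC1.

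**Figure D1:**
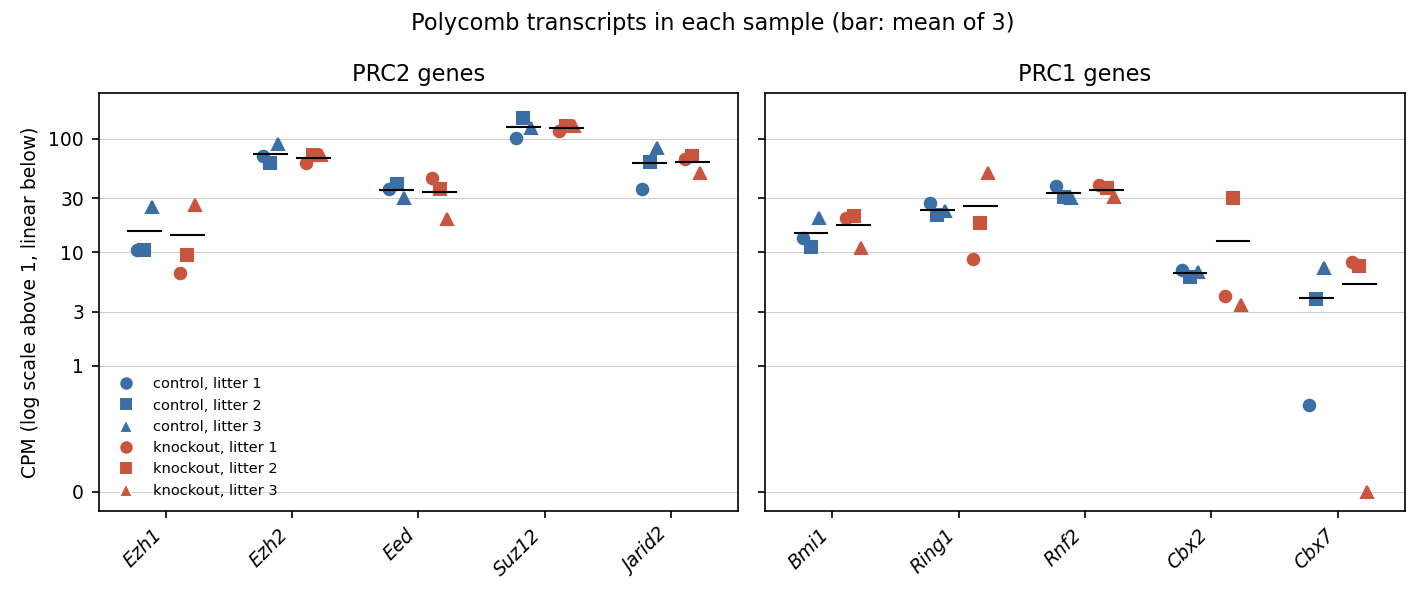
Level of each of the 10 Polycomb transcripts in each sample, in CPM on an axis that is logarithmic above 1 and linear below; blue points are controls, red points knockouts, symbols mark litters and bars are means of 3. Control and knockout points overlap for every gene, and Cbx7 in knockout 3 lies at 0.

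Ezh2 (chr6:47530139-47595341), the catalytic subunit that predominates in dividing cells, stood at 70.5, 60.7 and 89.02 CPM in the controls and at 61.1, 71.6 and 71.1 in the knockouts. The knockout samples all lay inside the range of the controls. edgeR estimated a log2 fold change of -0.11 ± 0.25 (SE), with a 95% interval of 0.625-fold to 1.37-fold (edgeR adjusted p = 0.967). Its counts ran from 2041 to 3925 a sample.

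Ezh1 (chr11:101191115-101226463), the paralogue that is better known from resting and differentiated cells, was scarcer. It measured 10.5, 10.4 and 25.2 CPM in the controls and 6.62, 9.48 and 26.1 in the knockouts. Litter 3 was the highest in both genotypes. Its log2 fold change was -0.13 ± 0.67 (SE), with an interval from -1.66 to 1.41 (edgeR adjusted p = 0.99), and it ran from -0.92 without knockout 3 to 0.43 without control 3.

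The 2 methyltransferase genes were also compared per kilobase of annotated exon, to allow for gene length. The length used is the union of all annotated exons of a gene, not that of the transcripts present. Ratios and shares between genes on this scale therefore depend on the annotation. On this scale Ezh2 exceeded Ezh1 by 7.505, 6.50 and 3.93 times in the controls and by 10.3, 8.41 and 3.04 times in the knockouts. Ezh1 accordingly made up 11.8%, 13.3% and 20.3% of the summed Ezh1 and Ezh2 level in the controls and 8.86%, 10.6% and 24.8% in the knockouts. The excess of Ezh2 was smallest in litter 3 in both genotypes.

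Suz12 (chr11:79993106-80034123), the scaffold of PRC2, had the highest level of the 10 and the tightest estimate. The controls stood at 102, 152 and 124 CPM and the knockouts at 117, 129 and 129. All 3 knockouts lay between the lowest and the highest control. The estimated difference, as a log2 fold change, was -0.01 ± 0.22 (SE), with a 95% interval of 0.695-fold to 1.42-fold (edgeR adjusted p = 0.997). That interval holds for the TMM scaling. The estimate was -0.13 under upper-quartile scaling and 0.16 on library size alone. Only 2.2% of tested genes had a smaller standard error. Part of its exons, 3.60%, overlaps a non-coding gene on the opposite strand, Gm26563, and the strandedness of the counting is not stated. The exons of Ezh2, Eed, Rnf2 and Cbx7 also overlap genes on the opposite strand, which are protein-coding for Rnf2 (Trmt1l) and Cbx7 (Apobec3), and over these 5 genes they cover 1.54% to 6.82% of exon bases.

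Eed (chr7:89954654-89980983), which encodes the subunit that reads H3K27me3, measured 36.1, 40.2 and 29.7 CPM in the controls and 45.2, 36.4 and 19.5 in the knockouts. Knockout 1 was the highest sample and knockout 3 the lowest, so the knockouts spanned the controls on both sides. The fitted log2 fold change was -0.07 ± 0.38 (SE), with an interval from -0.95 to 0.81 (edgeR adjusted p = 0.99), and it ran from -0.34 without knockout 1 to 0.22 without knockout 3. The ratio of Suz12 to Eed per kilobase was 2.18, 2.92 and 3.22 in the controls and 2.01, 2.74 and 5.13 in the knockouts.

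Jarid2 (chr13:44729474-44921643), an accessory subunit that guides PRC2 to its targets, spread 2.28-fold among the controls. They stood at 36.4, 62.9 and 82.7 CPM, and the knockouts at 66.02, 69.9 and 49.4. All knockouts lay inside the control range. edgeR estimated a log2 fold change of 0.03 ± 0.34 (SE), with an interval from -0.76 to 0.82 (edgeR adjusted p = 0.994), and it ran from -0.24 without control 1 to 0.32 without control 3. Within litters the knockout stood higher by 0.86 on the log2 scale in litter 1 and by 0.15 in litter 2, and lower in litter 3 (-0.74).

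**Figure D2:**
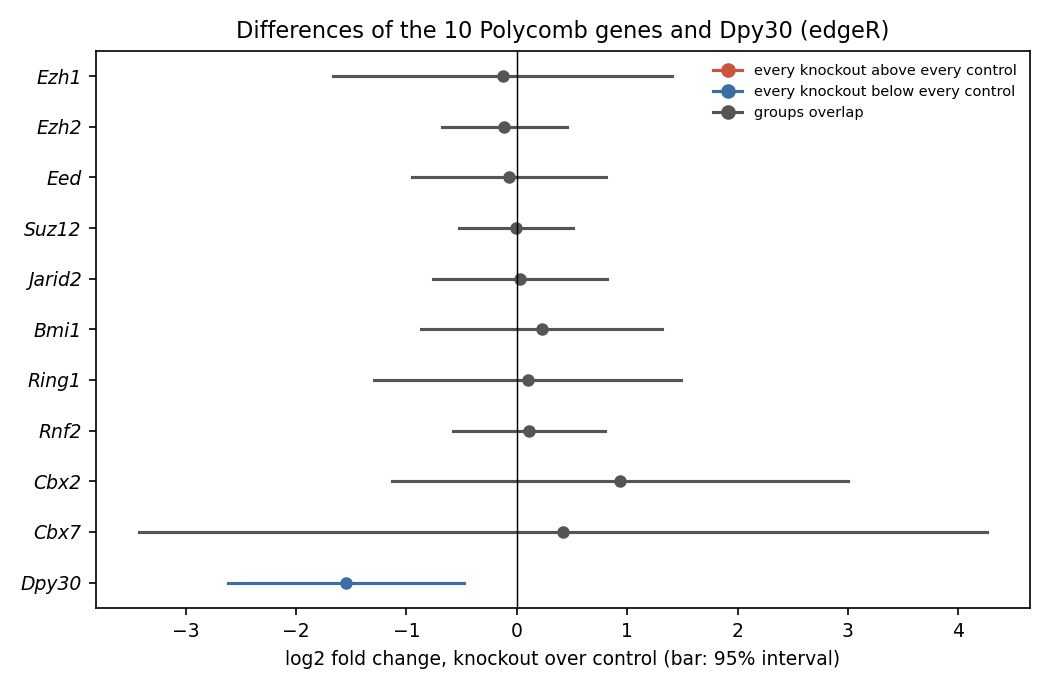
log2 fold change, knockout over control, of the 10 Polycomb genes and Dpy30 from edgeR; points are estimates and bars are 95% intervals. The intervals of all 10 Polycomb genes cross 0, from the narrow one of Suz12 (-0.52 to 0.51) to that of Cbx7 (-3.43 to 4.26), while that of Dpy30 does not.

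Rnf2 (chr1:151458004-151500955), the main PRC1 ubiquitin ligase in many cell types, was the steadiest of the PRC1 transcripts. The controls measured 38.6, 30.5 and 29.7 CPM and the knockouts 39.2, 36.7 and 30.6. It was the 1 gene of the 10 whose difference had the same sign in every litter, with 0.02, 0.26 and 0.04 on the log2 scale. The share of all tested genes with the same sign in every litter was not computed. Upper-quartile scaling moved the fitted log2 fold change of Rnf2 to -0.0057. Its log2 fold change was 0.11 ± 0.30 (SE), with an interval from -0.58 to 0.80 (edgeR adjusted p = 0.974).

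Ring1 (chr17:34020792-34024680), its paralogue, was even across the controls and uneven across the knockouts. Controls stood at 26.9, 21.3 and 22.9 CPM, and knockouts at 8.71, 18.1 and 49.4. Knockouts 1 and 2 lay below every control and knockout 3 above every control, a span of 5.67-fold against 1.27-fold in the controls. The estimated difference, as a log2 fold change, was 0.10 ± 0.60 (SE), with an interval from -1.29 to 1.49 (edgeR adjusted p = 0.99), and it ran from -0.81 without knockout 3 to 0.50 without knockout 1 and was -0.25 with litter as a block. Per kilobase, the ratio of Rnf2 to Ring1 was 1.125, 1.129 and 1.02 in the controls and 3.54, 1.60 and 0.487 in the knockouts.

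Bmi1 (chr2:18677018-18686629), the PCGF partner most studied in stem cells, measured 13.4, 11.05 and 19.9 CPM in the controls and 19.98, 20.8 and 11.0 in the knockouts. Knockouts 1 and 2 lay just above the highest control and knockout 3 just below the lowest. The fitted log2 fold change was 0.22 ± 0.47 (SE), with an interval from -0.87 to 1.31 (edgeR adjusted p = 0.964), and it ran from 0.06 without control 2 to 0.50 without control 3. The predicted gene Gm5946 matches 2658 bases of Bmi1 at 97.0% identity and took 99 counts over all samples, so reads shared between these loci could be assigned to either.

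Cbx2 (chr11:119022962-119031270), a chromodomain subunit of PRC1, gave the widest gap between means of the 10, and 1 sample carried it. The controls were at 6.98, 6.10 and 6.71 CPM and the knockouts at 4.13, 30.2 and 3.46. Knockouts 1 and 3 lay below every control and knockout 2 was 8.75 times knockout 3. edgeR estimated a log2 fold change of 0.93 ± 0.90 (SE), with an interval from -1.13 to 3.00 (edgeR adjusted p = 0.901), and it ran from -0.80 without knockout 2 to 1.39 without knockout 3.

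Cbx7 (chr15:79915807-79971119), the chromodomain subunit linked to stem cell self-renewal in the adult, was the scarcest of the 10 and the most variable. It measured 0.691, 3.88 and 7.21 CPM in the controls and 8.18, 7.58 and 0 in the knockouts. The 0 in knockout 3 was a count of 0, which allows a level of up to 0.0857 CPM (3 counts), a limit that covers counting error only. Its log2 fold change was 0.42 ± 1.67 (SE), with an interval from -3.43 to 4.26 (edgeR adjusted p = 0.983), and limma-voom gave -1.61. It was 1.02 without knockout 3 and ran from -0.08 without control 1 to 1.20 without control 3.

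**Figure D3:**
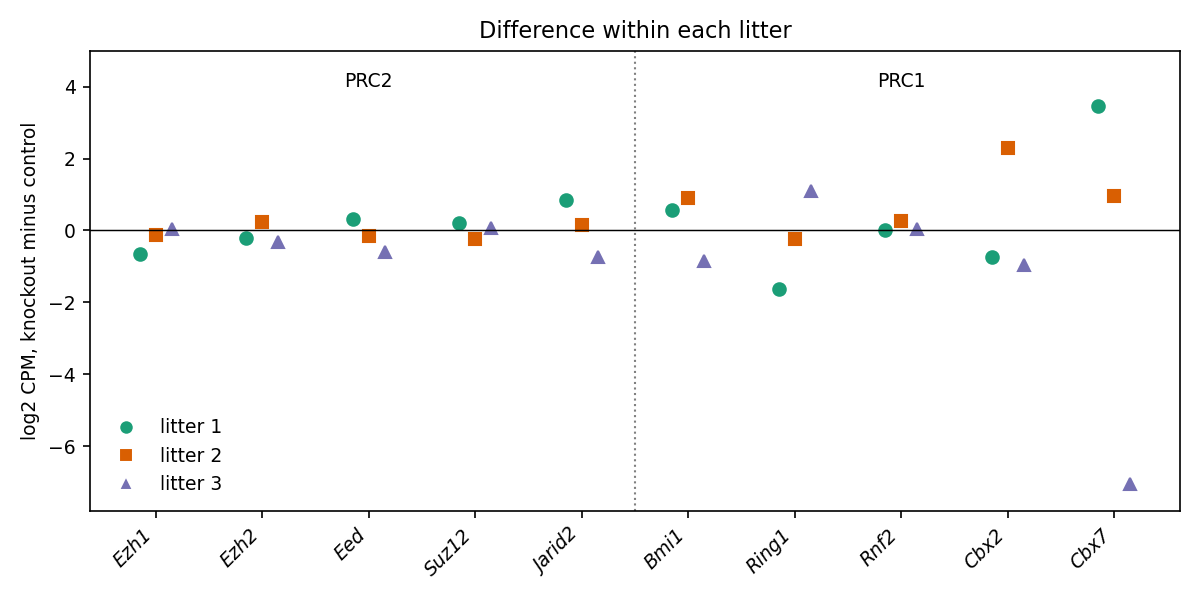
Knockout minus control within each litter, as log2 CPM with a prior count of 2, for the 5 PRC2 genes (left) and the 5 PRC1 genes (right); each symbol is 1 litter. Rnf2 alone has all 3 symbols on the same side of 0, at 0.02, 0.26 and 0.04. The lowest point, Cbx7 in litter 3 at -7.07, comes from a count of 0.

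The order of the levels was similar in the genotypes. Per kilobase of exon, the control means ran from Suz12 (25.4 ± 5.09 CPM per kb) through Ezh2 (10.99 ± 2.15), Eed (9.24 ± 1.38), Rnf2 (7.98 ± 1.18), Ring1 (7.31 ± 0.899), Jarid2 (6.24 ± 2.40), Bmi1 (3.72 ± 1.15), Ezh1 (2.07 ± 1.15) and Cbx2 (1.55 ± 0.106) to Cbx7 (0.605 ± 0.503). The knockout means kept that order except that Cbx2 (2.96) stood above Ezh1 (1.89). Among neighbours in this order, Suz12 exceeded Ezh2 without overlap over all 6 samples, with a lowest value of 20.6 against a highest of 13.3. In the controls Cbx2 exceeded Cbx7 without overlap, 1.43 against 1.11. Jarid2 exceeded Bmi1 within each of the 6 samples, although their ranges over samples overlapped. The remaining neighbours overlapped as well, and none of those pairs had the same order in all 6 samples.

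The spread between samples differed by genotype and by gene. edgeR's common biological coefficient of variation was 0.598 fitted on the controls alone and 0.997 on the knockouts alone. For Suz12, Ezh2, Jarid2 and Rnf2 the SD of the CPM was the larger in the controls (25.2 against 6.76 for Suz12). The median standard error of a log2 fold change was 0.71 over all tested genes, and 8 of the 10 Polycomb genes lay below it. For Cbx2 the interval ran from 0.457-fold to 7.99-fold, whereas for Ezh2, Suz12, Eed, Jarid2 and Rnf2 neither a doubling nor a halving lay inside it.

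Some transcripts followed the profile of Ezh2 or Bmi1 over the 6 samples closely. Likeness was the root mean square difference of centred log2 CPM among genes of at least 20 CPM. Closest to Ezh2 were Senp6, a SUMO protease, at 0.05, Gid4, a substrate receptor of an E3 ligase, at 0.07, and Rps24, a ribosomal protein, at 0.07, against a median of 0.46 over 4608 genes. Closest to Bmi1 were Sri, a calcium-binding protein, at 0.10, Cln6, at 0.11, and Dera, a deoxyribose-phosphate aldolase, at 0.13, against a median of 0.59 over 4609 genes. The named genes were picked as the smallest distances, so they lie below these medians by choice. These values describe 6 samples and carry no test. Among the 10 genes themselves the closest pair was Ezh2 and Suz12, at 0.28, followed by Ezh2 and the PRC1 gene Rnf2, at 0.29.

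The remaining PRC2 subunits did not differ past the threshold either. Of 7 listed genes all were tested. edgeR called none after adjustment (0% of all tested genes), and none had an unadjusted p under 0.05 (6.51% of all). The values were positive for 2 genes and negative for 5, with a median of -0.24. Rbbp7, a histone-binding subunit shared with other chromatin complexes, measured 110.3, 104 and 86.2 CPM in the controls and 79.2, 92.1 and 69.7 in the knockouts, a log2 fold change of -0.32 (edgeR adjusted p = 0.866). Its paralogue Rbbp4 gave 0.29 (adjusted p = 0.927) and Aebp2, a cofactor of PRC2.2, gave -0.24 (adjusted p = 0.927), both by edgeR. Phf1, a Polycomb-like cofactor, gave 2.05 (edgeR adjusted p = 0.866), which was -0.47 without knockout 3. Phf19, chosen after its values were seen, was the 1 gene of the list with every knockout below every control (7.74% of all tested genes). Its lowest level was in knockout 3, at 0.257 CPM where the other samples had at least 7.80.

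Some of the other PRC1 subunits had genotypes that did not overlap. Of 18 listed genes, edgeR called none after adjustment (0% of all tested genes). At an unadjusted p under 0.05, 3 genes stood higher in the knockouts (Pcgf5, Bcor and Phc3; 4.26% of all tested genes did) and 1 lower (Pcgf6; 2.24% of all). Every knockout lay above every control for 4 genes, against 6.39% of all tested genes, and below for 2, against 7.74%. The list was chosen with earlier results of these data known, so these counts are a description. Its median log2 fold change was 0.34, and 0.19 with litter as a block.

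Pcgf5 (chr19:36348309-36460970) encodes a PCGF partner of the variant PRC1 complexes that act without CBX proteins. It measured 5.53, 6.31 and 6.19 CPM in the controls and 15.3, 14.8 and 15.3 in the knockouts. The 2 groups were tight and far apart, 6.01 ± 0.424 against 15.1 ± 0.299 CPM. The estimated difference, as a log2 fold change, was 1.33 ± 0.49 (SE), with an interval from 0.19 to 2.47. edgeR gave an adjusted p of 0.729. DESeq2 gave an adjusted p of 0.00311, and one of 0.206 with litter as a block.

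Pcgf6 (chr19:47033617-47050906) encodes the PCGF partner of another variant complex, which is known for silencing germline genes. It stood at 14.54, 19.5 and 13.5 CPM in the controls and at 6.26, 5.32 and 1.94 in the knockouts. Every knockout lay below every control. The fitted log2 fold change was -1.81 ± 0.63 (SE), with an interval from -3.27 to -0.35 (edgeR adjusted p = 0.729; DESeq2 adjusted p = 0.0729), and -1.44 without knockout 3.

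The PCGF proteins compete for the same ligase, so each transcript was also taken as a share of the summed PCGF level per kilobase. Pcgf6 made up 19.0%, 29.5% and 13.6% of it in the controls and 8.39%, 5.81% and 1.10% in the knockouts, with no overlap. Pcgf5 made up 2.88%, 3.80% and 2.49% in the controls and 8.16%, 6.43% and 3.44% in the knockouts, which overlapped. Bmi1 made up 22.2%, 21.1% and 25.4% in the controls and 33.8%, 28.8% and 7.86% in the knockouts. In knockout 3 the pool was dominated by Pcgf1 (60.2%), a gene looked at after its values were seen that measured 34.9 CPM there and at most 2.86 CPM in any other sample. A share moves with every other gene in its sum.

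Bcor, a corepressor that joins the PCGF1 complex, measured 69.7, 74.4 and 73.1 CPM in the controls and 85.3, 145 and 109 in the knockouts. Its log2 fold change was 0.65 ± 0.25 (SE), with an adjusted p of 0.751 by edgeR. Phc3, a Polyhomeotic subunit that lets PRC1 complexes cluster, measured 65.9, 59.9 and 75.1 CPM in the controls and 102, 79.0 and 131 in the knockouts, a log2 fold change of 0.63 ± 0.26 (SE), with an adjusted p of 0.758 by edgeR. Its relative Phc1, chosen after its values were seen, also had every knockout above every control (31.9 to 55.6 against 57.2 to 95.1 CPM, edgeR adjusted p = 0.788). In these genes the groups separated by less than a doubling of the mean. Scml2, also chosen after its values were seen, was the other gene with every knockout below the controls, with a log2 fold change of -1.20 (edgeR adjusted p = 0.877).

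**Figure D4:**
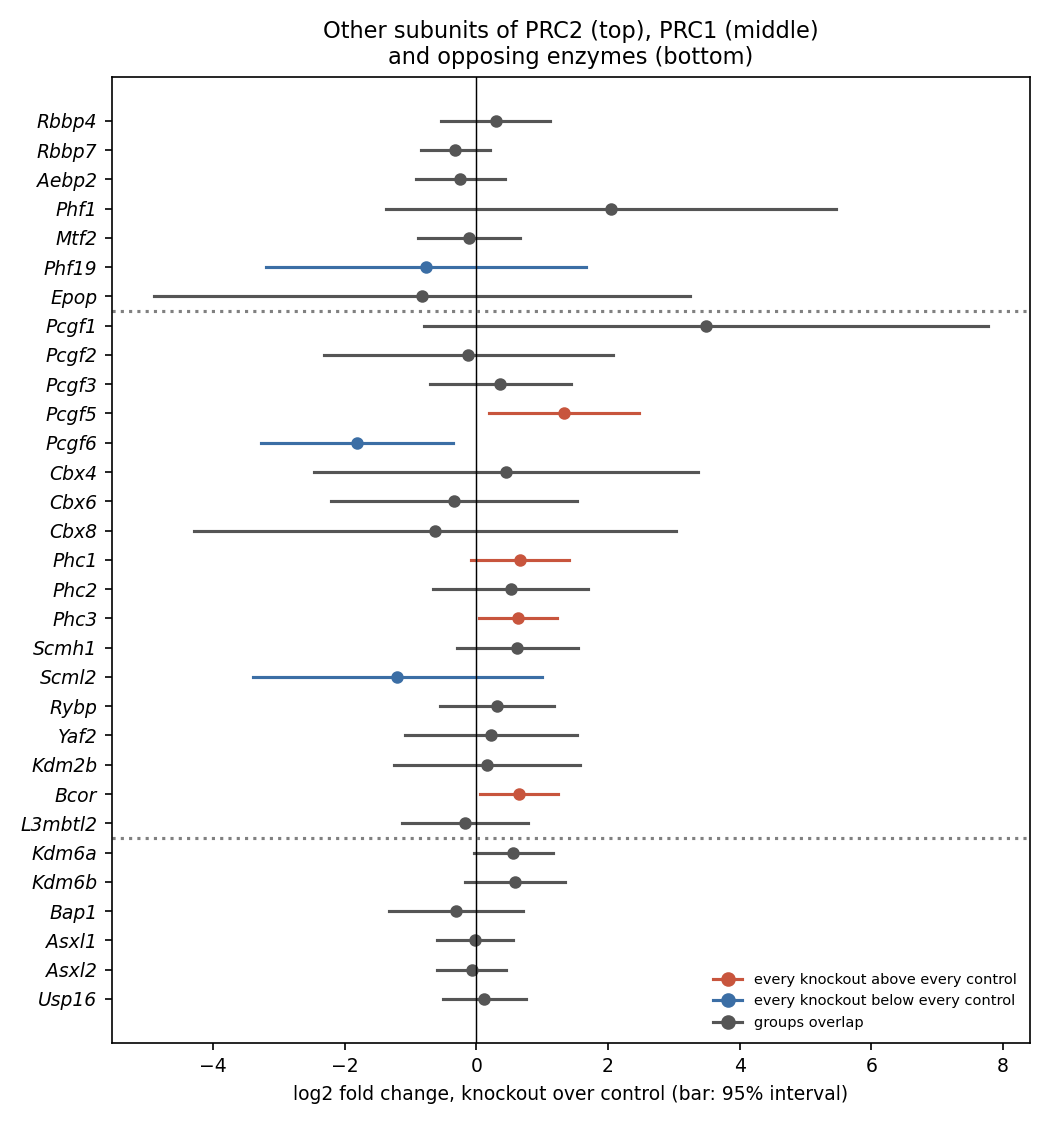
log2 fold change with its 95% interval (edgeR, knockout over control) for 7 other PRC2 subunits (top), 18 other PRC1 subunits (middle) and 6 opposing enzymes (bottom); red marks genes with every knockout above every control and blue the reverse. Pcgf5 at 1.33 and Pcgf6 at -1.81 have intervals clear of 0, as do Bcor and Phc3.

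Of 6 genes for enzymes that remove the Polycomb marks and their partners, edgeR called none (0% of all tested genes). None had an unadjusted p under 0.05 (6.51% of all). Their log2 fold changes were positive in 3 and negative in 3, with a median of 0.05. Kdm6a (UTX), an X-linked H3K27 demethylase, measured 62.8, 73.6 and 67.98 CPM in the controls and 71.8, 109.6 and 120.1 in the knockouts, a log2 fold change of 0.56 ± 0.26 (SE), with an adjusted p of 0.775 by edgeR. Xist is an RNA made from the inactive X chromosome. Looked at after its values were seen, it stood at 182 to 497 CPM in the controls and at 64.6 to 163 in the knockouts. The 4 Y-linked genes, also looked at afterwards, summed to 24.3 to 72.1 CPM in the controls and 43.9 to 92.0 in the knockouts. The part of the sex of the cells in the Kdm6a values was not tested. Kdm6b (JMJD3) gave 0.59 (edgeR adjusted p = 0.811), Bap1, the catalytic subunit of the main H2A deubiquitinase, gave -0.31 (adjusted p = 0.938), and Usp16 gave 0.12 (adjusted p = 0.967).

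Classical Polycomb targets were mostly silent in both genotypes. Cdkn2a, the Ink4a/Arf locus that BMI1 represses, had 0 counts in all 6 samples. By counting error alone this allows up to 0.0680 to 0.104 CPM a sample (3 counts), a limit that does not cover losses in library preparation. Cdkn2b had 0 counts in every sample except knockouts 1 and 2, with 2 and 151 counts. Both were picked out after their values were seen. Cdkn1c (p57), which keeps HSCs quiescent, measured 9.39, 17.1 and 17.9 CPM in the controls and 13.5, 39.8 and 28.3 in the knockouts, a log2 fold change of 0.88 (edgeR adjusted p = 0.824). Of 15 listed developmental regulators, 7 had no count in any sample and 3 were tested: Gata4 (-0.62), Sox17 (-0.58) and Gata6 (-1.02), with every edgeR adjusted p at 0.937 or above. Gata4 ran from 16.5 to 52.2 CPM in the controls and was at 42.7, 0.744 and 28.1 in the knockouts.

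The Hox genes, which PRC2 silences in most tissues and MLL complexes keep active in blood, were present at low levels. Of 39 listed, 38 were in the files, 17 had no count in any sample and 13 were tested. Their log2 fold changes were negative in 10 and positive in 3, with a median of -1.10, against 0.01 over all tested genes; without knockout 3 the median was -0.53 and without control 1 it was -0.55. edgeR called none after adjustment (0% of all tested genes). 1 gene, Hoxa3, had an unadjusted p under 0.05 (2.24% of all tested genes were lower at that level). Every knockout lay below every control for 2 genes, Hoxa3 and Hoxa7, against 7.74% of all tested genes.

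Hoxa3 (GRCm38 chr6:52169062-52213336) measured 17.1, 9.36 and 12.7 CPM in the controls and 5.64, 1.32 and 4.37 in the knockouts. It was lower in the knockout of every litter. edgeR estimated a log2 fold change of -1.79 ± 0.73 (SE), with an adjusted p of 0.754. Its exons overlap antisense and neighbouring genes, among them 5730596B20Rik (4.86% of its exon bases), so some of its counts could belong to another transcript. Hoxa7 measured 11.7, 4.71 and 7.44 CPM in the controls and 3.20, 3.03 and 0 in the knockouts, a log2 fold change of -1.93 (edgeR adjusted p = 0.869), which was -1.34 without knockout 3. Hoxa6 gave -1.10 (edgeR adjusted p = 0.875) and Hoxb8 gave -2.12 (adjusted p = 0.905).

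**Figure D5:**
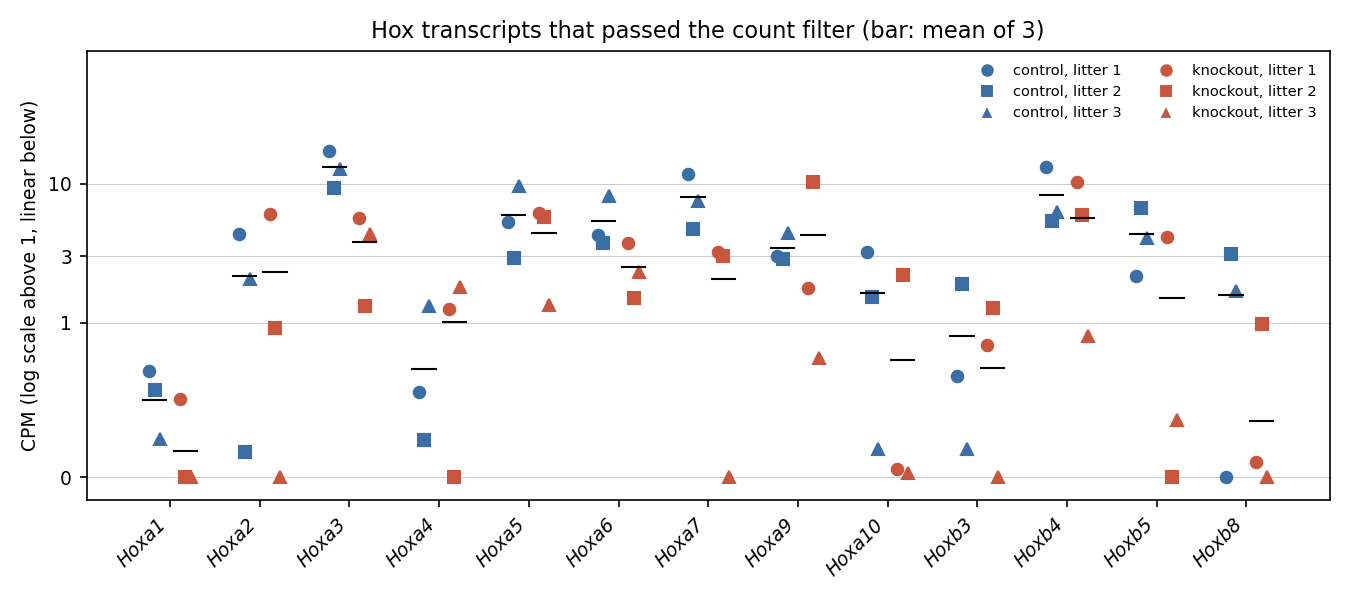
Level of the 13 Hox transcripts that passed the count filter, in CPM on an axis that is logarithmic above 1 and linear below; blue points are controls, red points knockouts, symbols mark litters and bars are means of 3. Hoxa3 and Hoxa7 are the genes whose 3 knockout points all lie below the controls, and knockout 3 (red triangles) is the lowest sample for several others.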

How the data were processed

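RNA-seq gene counts of 6 samples were analysed, 1 table a sample. Per the submitters' processing notes, the build was mm10, and CASAVA 1.8.4, TopHat2, Picard 1.126, HTSeq 0.6.0, DESeq 3.0 and bedtools 2.17.0 were used, with no role or order given. The deposited values are whole-number, unnormalized read counts per gene symbol. The 5 rows a table that name no gene held 41.0% to 51.0% of its reads and were left out. The annotation and strandedness are not given in the sources used here.

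The counts were fitted with edgeR 4.0.16 (R 4.3.3): TMM scaling, filterByExpr, quasi-likelihood test of knockout against control without a litter term, Benjamini-Hochberg adjustment over 13646 genes, threshold 0.05. Intervals are the estimate ± the t quantile times its SE. DESeq2 1.42.0, limma-voom (limma 3.58.1), litter as a block, other scalings and filters, and leaving out each sample were alternatives. The shared litter in the labels pairs the samples; deviations of litter mates correlated at -0.02, -0.08 and 0.00. The labels do not say whether samples were pooled or single embryos, so p-values measure the spread between these samples. Every sample held both Xist (64.6 to 497 CPM) and Y-linked transcripts (24.3 to 92.0 CPM summed over 4 genes). How many embryos gave each sample was not tested. The fits were tested on simulated data with the same spread in both genotypes and no litter effect. How many changed genes they recover at the spread of these data is not given here.

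Lengths and coordinates come from GENCODE M21 (GRCm38). CPM per kb divides by the union of exons. The genes and lists were chosen with earlier results of these data known. Named beside the 10 genes and Dpy30 were, per list, the up to 4 tested genes with the smallest unadjusted p, and the 3 genes most like Ezh2 and Bmi1. The lists held other PRC2 subunits, other PRC1 subunits, opposing enzymes, cell-cycle inhibitors, Hox genes and developmental regulators. Marker lists of erythroid cells (492 to 1138 CPM in controls, 329.6 to 1116 in knockouts), hepatocytes (3.97 to 20.1 and 2.74 to 7.88) and proliferation (2043 to 2885 and 1954 to 2667) were summed beside those of HSCs and macrophages.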

Additional observations from a re-analysis of the deposited data

How the results depend on the processing

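No alternative called any of the 10 Polycomb genes, and their signs were not stable. Suz12 was positive with litter as a block (0.010), in DESeq2 (0.013), with DESeq2-style size factors (0.010), with mitochondrial genes left out (0.0056), scaled on library size only (0.16) and in DESeq2 with the block (0.031). Ring1 was negative with the litter block (-0.25), in limma-voom (-0.28), under upper-quartile scaling (-0.077) and in DESeq2 with the block (-0.23). Cbx7 was -1.61 in limma-voom. Upper-quartile scaling gave Jarid2 -0.085, Rnf2 -0.0057 and Usp16 -0.0084, and library size only gave Ezh2 0.080 and Eed 0.17; these scalings moved the median of all genes by -0.12 and 0.21. Library size only gave medians of 0.16 for PRC2 and 0.44 for PRC1, and upper-quartile scaling gave -0.17 and 0.12. The cause of the changes of sign was not tested. Leaving out each sample in turn gave ranges of -0.92 to 0.43 for Ezh1, -0.23 to 0.050 for Ezh2, -0.34 to 0.22 for Eed, -0.14 to 0.15 for Suz12, -0.24 to 0.32 for Jarid2, -0.81 to 0.50 for Ring1, -0.80 to 1.39 for Cbx2, -0.077 to 1.20 for Cbx7, -0.15 to 0.52 for Rbbp4, -0.47 to 4.10 for Phf1, -7.99 to 0.22 for Gata6 and -0.0011 to 0.28 for Usp16. Bmi1 stayed positive in all alternatives (0.06 to 0.50). Over all genes, edgeR called 0, DESeq2 253, DESeq2 with the block 381, and edgeR with no low-count filter or with at least 10 counts in every sample 1; leaving out each sample called 0. With litter as a replicate block edgeR called 0 genes and gave Dpy30 -1.62. In DESeq2 the block ended the calls of Dpy30, from an adjusted p of 0.0432 to 0.0509 (-1.60), and Pcgf5 from 0.00311 to 0.206. Dpy30 was -1.52 in DESeq2 without the block and -1.94 to -1.31 without single samples. Cbx7 gave no value under the filter of 10 counts, which removed it. DESeq2 with the block was chosen after seeing the data.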
